A study of Mus musculus with 10 samples.

Results

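Haploid epiblast stem cells (EpiSC) labelled p53-KO were compared with haploid epiblast-like cells (EpiLC) of the same label. EpiSC are self-renewing cell lines with the properties of the post-implantation epiblast, and EpiLC are the transient epiblast-like cells into which embryonic stem cells (ESC) are converted in culture. The libraries were chosen by their labels and make up 3 of the 10 RNA-seq libraries of the series: the EpiSC lines haEpi1 and haEpi5 and 1 EpiLC library. All 3 carry the labels strain 129SV, haploid and P53 -, so strain, ploidy and p53 label are the same on both sides by name. The EpiLC side has n = 1, each EpiSC library is a separate line, and the sources used here give no culture conditions, passage or sorting. The other libraries were diploid wild-type EpiSC (n = 2, titled fema and male), diploid p53-KO EpiSC (n = 1), haploid wild-type EpiLC (n = 1), haploid wild-type ESC (n = 1), diploid wild-type ESC (n = 1) and diploid wild-type mouse embryo fibroblasts (MEF, n = 1), all of strain 129SV. They supplied reference levels and, for the replicated wild-type EpiSC, part of the spread used in the test.

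Pluripotent cells of the mouse pass from a naive state, held by ESC and marked by factors such as Zfp42, Esrrb and Tfcp2l1, to a primed state held by EpiSC. On the way, naive genes are shut down, DNA methylation rises, and genes of the post-implantation epiblast such as Fgf5, Otx2 and Pou3f1 come on. EpiLC stand between the states and are often called formative. Naive cells also carry low-level transcription of germline genes, many of which are silenced by promoter methylation after implantation.

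Total counts were between 15862113 and 18814003 over the 10 libraries. Levels are given as CPM, read counts scaled to library size with trimmed-mean (TMM) normalisation over all genes, and 3 counts, taken as the limit that a count of 0 allows, were 0.151 CPM in haEpi1, 0.173 CPM in haEpi5 and 0.189 CPM in the EpiLC library. Such limits, and the counting intervals given for single genes, take in counting error alone. Every pair of libraries differed by more than sampling noise. The chi-square per degree of freedom between haEpi1 and haEpi5 was 73.7, whereas that between haEpi1 and the female wild-type EpiSC library was 34.8. The EpiLC library lay closest to the haploid ESC library (78.4), then to the diploid ESC library (93.1) and the wild-type EpiLC library (98.7). Trp53, the gene of p53, was measured at 50.5, 61.8 and 32.9 CPM in haEpi1, haEpi5 and the EpiLC library. The wild-type libraries ranged from 28.5 to 375 CPM and the diploid p53-KO EpiSC library held 2.17 CPM, so Trp53 RNA did not separate the genotype labels. The sources used here do not say which part of the gene was targeted.

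X-linked expression differed between the EpiSC lines that share the haploid label. Over 371 X-linked genes the median log2 ratio to the EpiLC library was -0.13 in haEpi1 and -0.64 in haEpi5, against autosomal medians of -0.05 and 0.02. The X-to-autosome ratio relative to the EpiLC library was thus 0.950 in haEpi1 and 0.960 in haploid ESC, but 0.633 in haEpi5. Diploid EpiSC libraries had 0.593 to 0.690, diploid ESC 0.537 and the wild-type EpiLC library, labelled haploid, 0.602. The haEpi5 library therefore lay within the range of the diploid EpiSC libraries. Xist, the RNA that coats and silences an X chromosome, was at 39.1, 168 and 34.2 CPM in haEpi1, haEpi5 and the EpiLC library. Ploidy was not measured in these files, and the X-linked summary was chosen after the values were seen.

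**Figure D1:**
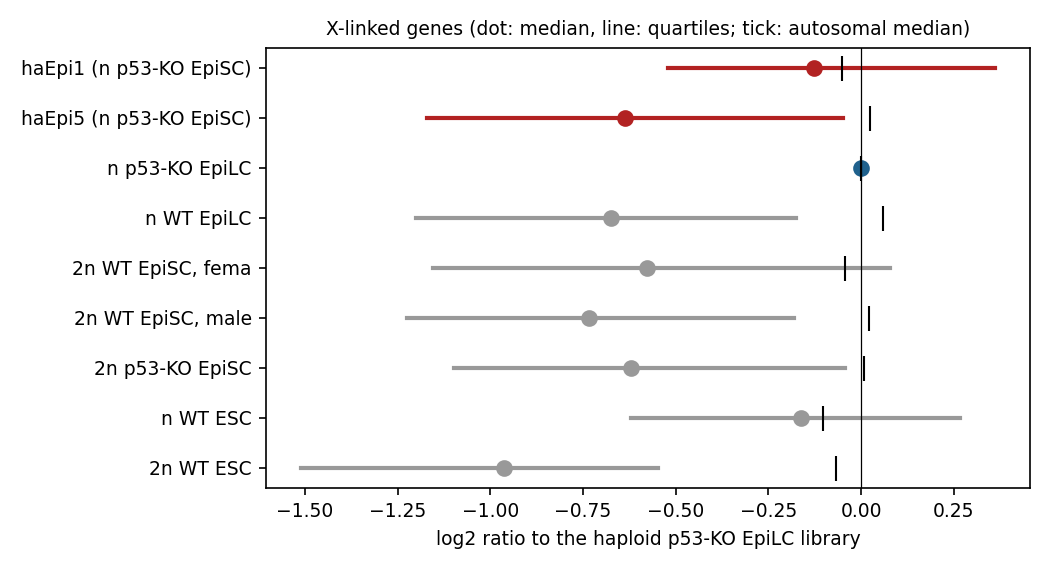
Median (dot) and quartiles (line) of the log2 ratio of 371 X-linked genes to the haploid p53-KO EpiLC library, with the autosomal median as a tick, for the 9 pluripotent libraries (n haploid label, 2n diploid label). haEpi1 and haploid ESC sit near 0, and haEpi5 sits at -0.64 among the diploid EpiSC.

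By edgeR's quasi-likelihood test with Benjamini-Hochberg adjustment at 0.05, 689 of 20583 genes passed (3.35%), of which 289 were higher in EpiSC (1.4%) and 400 were lower (1.94%). Among the listed genes, 13 of 22 naive and 17 of 21 germline genes fell in EpiSC, and 7 of 23 fibroblast genes and 5 of 10 glypicans and syndecans rose. These genes make up a small part of all calls. All 689 had both lines on the same side of the EpiLC library, and 635 differed at least 4-fold. The test that chose these genes used the same libraries, so this is no independent measure of agreement between the lines. Among the genes that fell, 81 had 0 counts in both EpiSC lines. The median level of the 400 was 19.5 CPM in the EpiLC library, 0.226 CPM in haEpi1 and 0.230 CPM in haEpi5. The median level of the 289 was 7.55 CPM in the EpiLC library and 56.9 CPM in each EpiSC line.

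The p-values rest on the spread within the EpiSC pairs, since the lone EpiLC library was assumed to vary like them. That spread includes differences between lines and sexes as well as technical ones. No gene passed when haEpi1 or haEpi5 was left out (3030 and 2522 genes had an unadjusted p under 0.05), whereas 2536 passed without the female and 2127 without the male wild-type EpiSC library. The absence of calls for single lists or genes without haEpi1 or haEpi5 follows from the loss of all calls. It is not particular to those lists or genes. The fits without the female and the male wild-type EpiSC library tested 20365 and 20391 genes, and DESeq2 called 1912 of 16713. List counts from these fits, given below, are to be read beside these totals over all genes. The share of higher calls also moved: DESeq2 called 1127 higher and 785 lower, the 3 libraries alone 1159 and 952, and limma on log2(FPKM + 1) 76 and 841. With limma at either pseudocount none of the fibroblast, mesenchymal, epithelial, p53 target, G1, Wnt or imprinted genes passed, and 1 proteoglycan (Gpc1) and 1 ERK gene did. Of the 13 naive calls limma kept 9 and 4 at pseudocounts of 1 and 0.1, and of the 17 germline calls 17 and 16. Without any borrowed spread, 1161 of 12279 genes with at least 5 CPM on the higher side (9.46%) were at least 4-fold away from EpiLC in both lines. Of these, 662 were higher in EpiSC (5.39%) and 499 lower (4.06%), and 544 also passed the test. Between the EpiSC lines themselves, 191 of the same 12279 genes differed at least 4-fold.

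**Figure D2:**
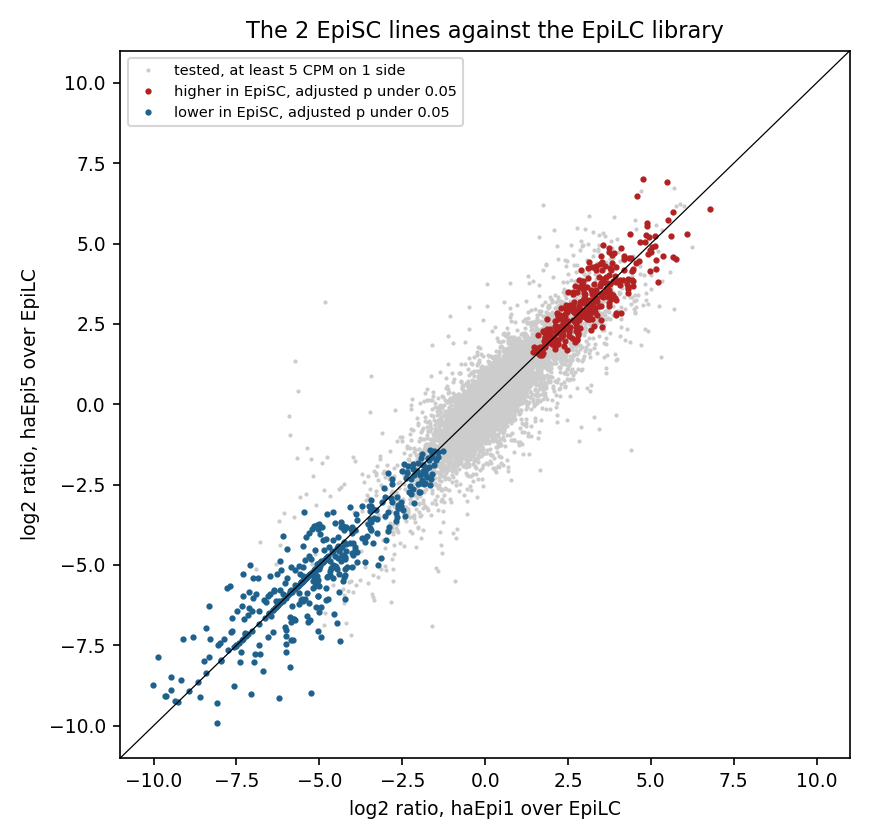
Log2 ratio to the EpiLC library (TMM CPM, prior count 2) in haEpi1 (x axis) and haEpi5 (y axis), for genes with at least 5 CPM on 1 side (grey) and genes with an adjusted p under 0.05 (red higher, blue lower in EpiSC). All 689 coloured genes lie in the quadrants where both lines moved the same way, and they were chosen by a test that used these same libraries.

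Naive pluripotency genes that fell in EpiSC included the naive markers Zfp42 and Dppa5a. Zfp42, also known as Rex1, was at 1.61 CPM (haEpi1) and 2.42 CPM (haEpi5) against 142 CPM in the EpiLC library. From here on, pairs of EpiSC values are given in the order haEpi1, haEpi5. It fell with a log2 fold change of -6.14 ± 0.68 (SE; adjusted p = 0.00928 by edgeR). Dppa5a, an RNA-binding protein gene of naive cells, stood at 0.552 and 1.5 CPM against 691 CPM, a log2 fold change of -9.41 ± 0.79 (adjusted p = 0.00397). Esrrb, the orphan nuclear receptor of the naive network, stood at 6.88 and 6.63 CPM against 186 CPM. Its log2 difference of -4.78 ± 1.04 did not pass (adjusted p = 0.0586). Fgf5, the ligand that marks the post-implantation epiblast, stood at 60.6 and 28.1 CPM against 39.2 CPM. The EpiLC value of Fgf5 lay between the lines, so the sides overlapped (log2 0.18 ± 0.50, adjusted p = 0.893), and without haEpi1 the difference was -0.48. In haploid and diploid ESC, Zfp42 was at 181 and 537 CPM, Esrrb at 357 and 735 CPM, Dppa5a at 425 and 999 CPM, and Fgf5 at 0.15 and 0.062 CPM. The EpiLC library thus held all 4 markers at once, with Zfp42 and Esrrb below both ESC libraries and Dppa5a between them. In the wild-type EpiLC library Zfp42 was 26.6 CPM, Esrrb 16.8 CPM, Dppa5a 787 CPM and Fgf5 111 CPM.

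**Figure D3:**
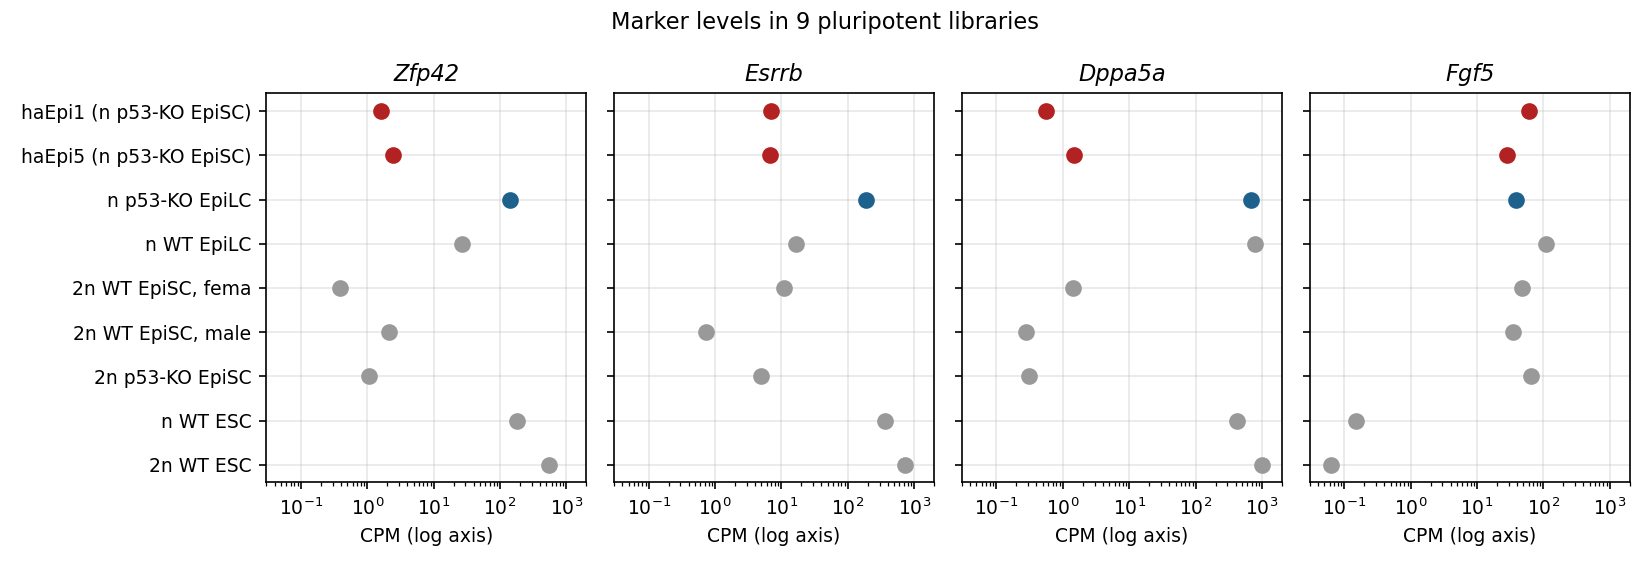
Levels of Zfp42, Esrrb, Dppa5a and Fgf5 (CPM, log axis) in each of the 9 pluripotent libraries, with the EpiSC lines in red and the EpiLC library in blue (n haploid label, 2n diploid label). The 3 naive markers separate the EpiLC library from both EpiSC lines, and Fgf5 does not.

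Of the 22 naive genes listed, all tested, 13 fell, none rose and 9 did not pass. The median log2 fold change was -4.57, against 0 over all genes tested, and all 22 values were negative. Dppa3, a protector of maternal methylation marks, had 0 and 1 counts in the EpiSC lines against 17.6 CPM in the EpiLC library, a log2 ratio with a 95% counting interval of -14.67 to -6.87. Its partners in name Dppa2 and Dppa4, chromatin proteins that prime developmental genes, stood at 3.17 and 1.09 CPM against 133 CPM, and at 1.61 and 0.115 CPM against 129 CPM. Tcl1, an Akt co-activator, had 0 and 2 counts against 8.94 CPM (counting interval of the log2 ratio -10.44 to -5.50). The transcription factors Nr5a2 (0.151 and 0.115 against 9.44 CPM), Prdm14 (0 and 0.173 against 4.53 CPM) and Tfcp2l1 (10.5 and 6.68 against 132 CPM) also fell. Klf5, a factor shared by naive cells and epithelia, fell least among those that passed, from 258 CPM to 66.3 and 56.5 CPM (-2.07 ± 0.37, adjusted p = 0.0358).

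Several core naive factors did not pass. Nanog stood at 20.8 and 52.9 CPM against 99.8 CPM (-1.44 ± 0.71, adjusted p = 0.324), and Klf4 at 10.1 and 11.7 CPM against 13.4 CPM. Klf2 (13.7 and 6.86 against 108 CPM) and Tbx3 (5.53 and 4.09 against 42.6 CPM) were lower in both lines with adjusted p of 0.0883 and 0.0989. The fibroblast library held 32.9 CPM of Klf2, 41.6 CPM of Tbx3 and 38.5 CPM of Klf4. Without haEpi1 or without haEpi5 no naive gene passed, and 18 and 17 passed without the female and the male wild-type EpiSC library. In a bulk library, fewer cells of a type and less RNA per cell cannot be told apart, and this applies to every level given here.

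Of 21 listed germline genes, 17 fell in EpiSC, none rose and 4 did not pass, with a median log2 fold change of -7.45 (-7.20 with genes at 0 counts set to their bound) against 0 over all genes tested. The summed level of the list was 11.2 CPM in haEpi1 and 7.20 CPM in haEpi5, against 652 CPM in the EpiLC library and 276 CPM in the wild-type EpiLC library. Promoters of the 4 members with the lowest fitted fold changes that hold the E-box CACGTG before their start are shown here, because such motifs are a known feature of germline genes silenced after implantation. The sequences are RefSeq promoters of build GRCm38.p6, read 5′ to 3′ on the gene's strand, each a 150-base stretch of the promoter entry. Capitals mark CACGTG, which reads the same on both strands, and TCCCGC or its reverse GCGGGA, the core of E2F6-type sites.
Mael, chr1:166238838-166238987, minus strand: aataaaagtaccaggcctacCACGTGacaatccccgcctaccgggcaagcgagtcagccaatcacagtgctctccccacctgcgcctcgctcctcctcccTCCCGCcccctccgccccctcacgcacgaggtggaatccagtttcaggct
Stk31, chr6:49395389-49395538, plus strand: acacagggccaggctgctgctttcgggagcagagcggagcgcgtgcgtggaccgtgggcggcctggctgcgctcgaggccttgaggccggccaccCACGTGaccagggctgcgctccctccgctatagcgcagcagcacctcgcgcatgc
Taf7l, chrX:134476491-134476640, minus strand: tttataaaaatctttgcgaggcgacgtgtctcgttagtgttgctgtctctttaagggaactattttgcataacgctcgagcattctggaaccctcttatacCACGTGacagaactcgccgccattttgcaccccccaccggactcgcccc
Slc25a31, chr3:40708705-40708854, plus strand: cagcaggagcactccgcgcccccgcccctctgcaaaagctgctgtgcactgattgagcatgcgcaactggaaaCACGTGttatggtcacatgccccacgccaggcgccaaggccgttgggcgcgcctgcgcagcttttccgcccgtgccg

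Mael, needed for piRNA production and transposon silencing in the testis, had 0 counts in both EpiSC lines and 71.0 CPM in the EpiLC library. Against the floor of 3 counts per library this is a log2 fold change of -8.78 or lower. Stk31, a kinase-like gene of spermatogenic cells, had 0 and 1 counts against 31.0 CPM (counting interval of the log2 ratio -15.48 to -7.69). Taf7l, the germ cell paralog of a TFIID subunit, had 3 and 0 counts against 72.0 CPM (-12.08 to -8.25). Slc25a31, the testis-specific ADP/ATP carrier, had 1 and 2 counts against 53.8 CPM (-11.66 to -7.83). All 4 were higher in both ESC libraries than in either EpiSC line. Their CACGTG lay 223, 55, 49 and 93 bases before the RefSeq start, in the order Mael, Stk31, Taf7l and Slc25a31.

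Across the germline list, 14 of 23 promoter entries (60.9%) held CACGTG within 250 bases before to 50 bases after the start, on either strand, against 7.15% of all 32851 entries of the same length. TCCCGC was found in 43.5% of the list's entries and 20% of all entries. The list's promoters also held more CpG, 6.93 per 100 bases against 4.14. Of the 15 members that fell and had an entry, 8 held CACGTG. Over all genes that fell the share of entries with CACGTG was 11.5%, and over all that rose it was 3.02%. For TCCCGC these shares were 26% and 31.2%, so it was more frequent among the genes that rose. The naive list had CACGTG in 13.3% and TCCCGC in 20% of 15 entries. The Esrrb-type motif TCAAGGTCA was found in none of the germline and naive entries and in 0.423% of all entries.

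The other germline members that fell cover several steps of germ cell life. Ddx4, the Vasa helicase, stood at 0.151 and 0.231 CPM against 29.8 CPM (-7.25 ± 0.56, adjusted p = 0.00328). Sohlh2, a bHLH factor of early gametogenesis, had 1 count in each line against 56.3 CPM (counting interval of the log2 ratio -13.08 to -8.18). The piRNA pathway genes Mov10l1 (0 and 0.115 against 36.6 CPM), Asz1 (0 and 0 against 4.53 CPM) and Piwil2 (0.753 and 0.518 against 28.2 CPM) fell. So did the meiotic genes Stra8 (0.050 and 0.231 against 29.5 CPM), Hormad1 (0.050 and 0 against 5.92 CPM), Sycp3 (0.151 and 0.058 against 12 CPM) and the meiotic cohesin subunit Smc1b (0.502 and 0.518 against 13.3 CPM). Dazl, an RNA-binding regulator of germ cells, fell from 9 CPM to 0.151 and 0 CPM, while the haploid ESC library held 280 CPM. Tdrd1, Tex101, Brdt and Sycp1 did not pass, and Sycp1 kept 7.08 and 3.17 CPM in the EpiSC lines against 18.6 CPM. Tuba3a and Rpl10l, which also passed, have near-identical copies, so their counts are uncertain. No member passed without haEpi1 or without haEpi5, and 20 and 19 passed without the female and the male wild-type EpiSC library.

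The 2-cell-like state is a rare totipotent-like state of ESC cultures. Of 18 listed genes, 4 fell in EpiSC and 14 did not pass, with a median of -6.06 (-3.16 with genes at 0 counts set to their bound). Zscan4d, a telomere-associated zinc finger gene, had 0 counts in both lines against 5.22 CPM in the EpiLC library, a log2 fold change of -5.01 or lower. Zscan4c and Zscan4a also had 0 counts in both lines, against 2.46 and 1.76 CPM. Usp17le, a deubiquitinase gene, stood at 0.201 and 0.115 CPM against 3.34 CPM. Zscan4 and Usp17l genes are families of close copies, so counts of single members are uncertain. Zscan4a and Zscan4c did not pass with upper-quartile scaling, nor Zscan4c with MEF in the fit. The summed level of the list was 0.402 and 1.27 CPM in the EpiSC lines, 23.1 CPM in the EpiLC library and 10.3 CPM in the wild-type EpiLC library. Without haEpi1 or haEpi5 none passed, and 11 and 10 did without the female and the male wild-type EpiSC library.

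Among 14 genes of DNA methylation, only Dnmt3l passed in this fit, and it had the smallest p of the listed genes. Dnmt3l, the catalytically inactive partner of the de novo methyltransferases, was at 0.552 and 0.864 CPM in the EpiSC lines against 527 CPM in the EpiLC library (-9.53 ± 0.44, adjusted p = 0.0014). The wild-type EpiLC library held 115 CPM and the ESC libraries 143 and 236 CPM. The methyltransferases Dnmt3b (524 and 408 against 648 CPM), Dnmt3a (315 and 163 against 176 CPM) and Dnmt1 (375 and 329 against 386 CPM) did not pass. Tet1, which oxidises 5-methylcytosine, stood at 176 and 47.6 CPM against 468 CPM (-2.06 ± 0.63, adjusted p = 0.13). Uhrf1, which recruits Dnmt1, stood at 246 and 281 CPM against 626 CPM (-1.25 ± 0.30, adjusted p = 0.073). The Polycomb complex PRC2, which deposits H3K27 methylation, had 11 of 12 genes with negative values and a median of -0.88, but 0 passed; Mtf2 had the smallest adjusted p (100 and 89.6 against 240 CPM, 0.0594). Dnmt3l did not pass without haEpi1 or without haEpi5. Of the methylation genes 4 and 2, and of the PRC2 genes 4 and 4, passed without the female and the male wild-type EpiSC library.

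**Figure D4:**
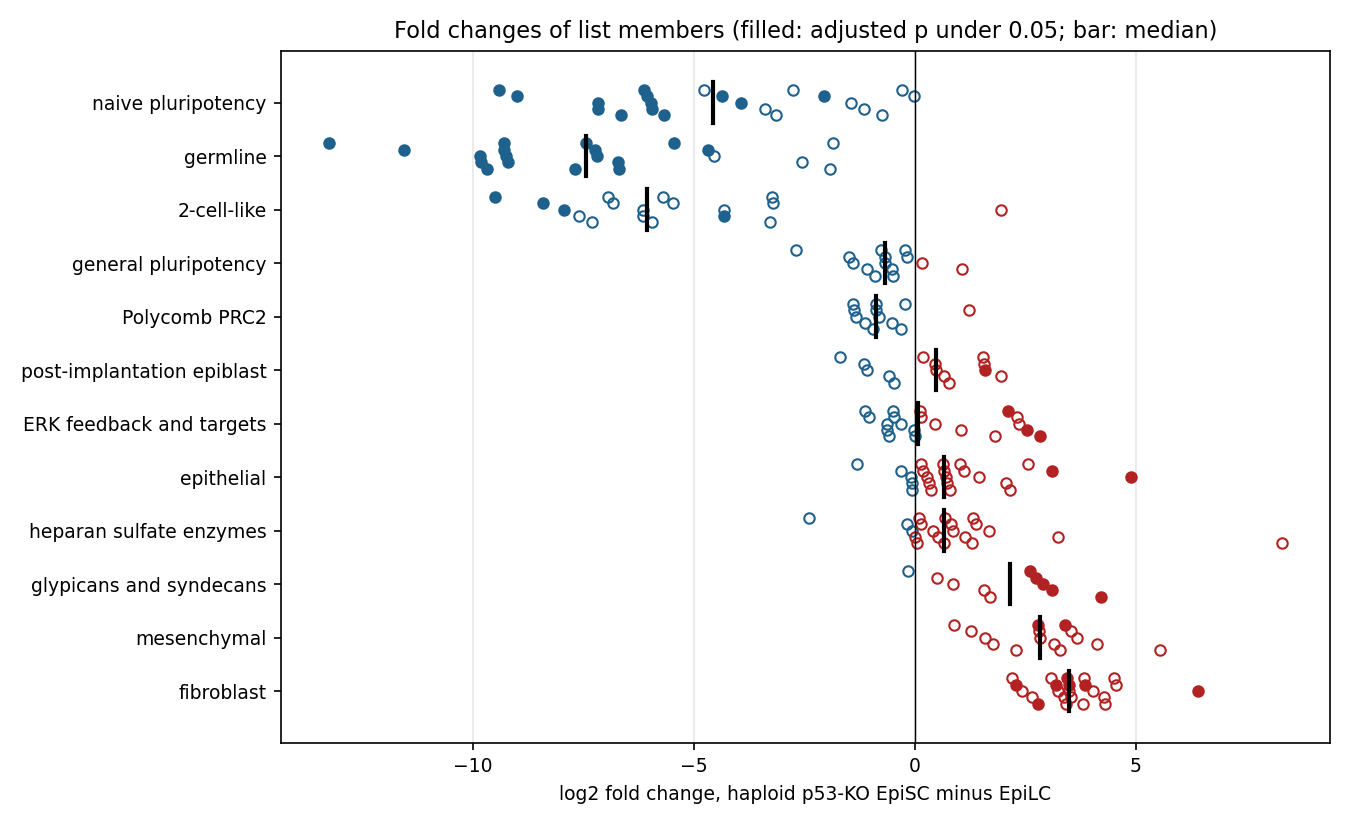
Fitted log2 fold change of every tested member of 12 gene lists, EpiSC minus EpiLC, with members past the adjusted p of 0.05 filled and the list median as a bar. Naive, germline and 2-cell-like genes lie to the left apart from 1 of the 2-cell-like genes, and proteoglycan, mesenchymal and fibroblast genes to the right apart from 1 proteoglycan; values of genes with 0 counts on a side depend on the prior count.

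None of the 14 genes of the general pluripotency list passed (median -0.68, 12 of 14 negative), and 3 passed without the female or the male wild-type EpiSC library. Pou5f1, which encodes Oct4, stood at 458 and 510 CPM against 692 CPM, and Sox2 at 159 and 111 CPM against 192 CPM. Their log2 differences were -0.52 ± 0.31 and -0.51 ± 0.39.

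Of 14 post-implantation epiblast genes 1 passed, with a median of 0.47. Zic2, a zinc finger factor active in primed cells, rose from 55.7 CPM in the EpiLC library to 167 CPM in each EpiSC line (1.58 ± 0.30, adjusted p = 0.0411). Pou3f1, also known as Oct6, stood at 227 and 281 CPM against 182 CPM, whereas the ESC libraries held 12.2 and 3.04 CPM. Otx2, a head and epiblast homeobox factor, stood at 56.3 and 31.9 CPM against 98.0 CPM (-1.15 ± 0.39, adjusted p = 0.161). Lef1, a Wnt effector, stood at 25.8 and 13.5 CPM against 63.8 CPM. Sall2 (84.7 and 65.9 against 26.1 CPM, adjusted p = 0.0694) and Sox4 (126 and 66.1 against 24.9 CPM, adjusted p = 0.0733) were nearest to the threshold among the rest. Zic2 did not pass with upper-quartile scaling, without haEpi1 or without haEpi5, and without the female or the male wild-type EpiSC library 5 genes of the list passed.

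FGF signalling through ERK drives cells out of the naive state, and EpiSC are kept in FGF and activin. Of 15 FGF ligands and receptors, 1 passed: Fgfr1, the main FGF receptor of the epiblast, rose from 98.8 CPM to 325 and 289 CPM (1.64 ± 0.31, adjusted p = 0.0413). Fgf4, the ligand made by naive and primed cells, stood at 93.5 and 36.4 CPM against 109 CPM. Of 20 ERK feedback and target genes, 3 rose, 0 fell and the median was 0.06, which turned to -0.01 with upper-quartile scaling and to -0.08 without haEpi1. Ier3, an immediate early gene, stood at 145 and 79.2 CPM against 15.7 CPM (2.83 ± 0.53, adjusted p = 0.0404). Phlda1 stood at 31.0 and 37.2 CPM against 5.86 CPM (2.54 ± 0.47, adjusted p = 0.0385). Dusp5, a nuclear ERK phosphatase, stood at 130 and 133 CPM against 30.8 CPM (2.10 ± 0.36, adjusted p = 0.0312). The feedback genes Dusp6 (167 and 173 against 264 CPM), Spry4 (84.7 and 47.9 against 93.2 CPM) and Etv5 (244 and 211 against 500 CPM) did not pass and had negative values. The genes of the list therefore did not move together. Fgfr1 and Ier3 did not pass with upper-quartile scaling. With haEpi1 or haEpi5 left out none of the FGF or ERK genes passed, and without the female and the male wild-type EpiSC library 6 and 5 ERK genes did.

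Nodal and activin, BMP, and Wnt genes gave 1 call, in the Wnt list of 17 genes (the others have 20 genes each). Sfrp1, a secreted Wnt antagonist, rose from 13.5 CPM to 61.7 and 49.7 CPM (2.05 ± 0.36, adjusted p = 0.032), and fibroblasts held 362 CPM. Inhba, the activin A subunit, stood at 114 and 56.1 CPM against 5.48 CPM (3.96 ± 0.89, adjusted p = 0.0646), with 171 CPM in fibroblasts. Smad3, a Nodal effector, stood at 65.2 and 63.1 CPM against 22.9 CPM (1.49 ± 0.33, adjusted p = 0.0617). Nodal itself stood at 52.8 and 55.2 CPM against 89.3 CPM. With DESeq2, 5 Nodal, 2 BMP and 3 Wnt genes passed, against 1912 of 16713 genes over all. Calls in the 3 lists, as in the other lists, changed with the EpiSC libraries left in the fit. None of 18 primitive streak genes passed; T (Brachyury) was at 1.66 and 0.807 CPM against 0.629 CPM, and Eomes at 8.54 and 3.98 CPM against 23.4 CPM (adjusted p = 0.199).

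Of 23 fibroblast markers, 7 rose in EpiSC, none fell and all 23 values were positive (median 3.48). The count was 5 with RLE or upper-quartile scaling, 10 with MEF in the fit, 20 with DESeq2 and 0 with limma at either pseudocount. Their summed level was 2448 CPM in haEpi1 and 3310 CPM in haEpi5, against 260 CPM in the EpiLC library, 112 CPM in the wild-type EpiLC library and 85760 CPM in MEF. None of the 23 was at 0 in the 3 libraries compared. As a median over the markers, haEpi1 held 4.38%, haEpi5 7.53% and the EpiLC library 0.629% of the MEF level, and haploid ESC held 3.21%. Col1a1, the main fibrillar collagen, stood at 285 and 586 CPM against 30.4 CPM (3.84 ± 0.57, adjusted p = 0.0213). Acta2, smooth muscle actin, stood at 37.5 and 177 CPM against 1.26 CPM (6.41 ± 1.16, adjusted p = 0.0358). Fbln2, a matrix fibulin, stood at 985 and 663 CPM against 74.1 CPM, with 2420 CPM in MEF, and no longer passed with RLE or upper-quartile scaling or with MEF in the fit. Of the 289 genes that rose, 184 (63.7%) were higher in MEF than in all 3 libraries compared, against 32% of all genes tested. With the genes highest in MEF left out of the calls, with no new fit or adjustment, 105 genes that rose and 392 that fell remained. The part of fibroblast RNA in single results was not tested. No marker passed without haEpi1 or without haEpi5, and 21 passed without the female or the male wild-type EpiSC library.

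Other markers that rose stood beside these fibroblast sums. All 15 mesenchymal genes had positive values (median 2.82) and 2 rose. Vim, the intermediate filament of mesenchymal cells, stood at 794 and 1411 CPM against 104 CPM (3.40 ± 0.66, adjusted p = 0.0434), with 3060 CPM in MEF, and did not pass with upper-quartile scaling or with MEF in the fit. Mmp14, a membrane-bound matrix protease, stood at 122 and 149 CPM against 19.6 CPM (2.79 ± 0.41, adjusted p = 0.0213), with 1355 CPM in MEF. In the extraembryonic endoderm list 3 of 17 genes rose, 7 of 17 values were negative, and the genes that rose were Col4a1 (430 and 239 against 21.7 CPM), Col4a2 (358 and 207 against 16.1 CPM) and Lamb1 (490 and 327 against 78.9 CPM), which encode basement membrane proteins. MEF held 1673, 1275 and 712 CPM of them. The median of the endoderm list was 1.65, with 10 positive values. The endoderm factors Gata4, Sox17 and Hnf4a were at or below 0.301 CPM in both EpiSC lines. Gata4 was higher in the EpiLC library, at 3.90 CPM, without passing (-3.69 ± 0.82, adjusted p = 0.0629 by edgeR). The cell type behind these levels was not tested. Nes, the neural and early progenitor intermediate filament, was the 1 of 14 neural genes that rose, from 29.8 CPM to 378 and 461 CPM (3.81 ± 0.40, adjusted p = 0.00785), with 278 CPM in MEF. Of 14 trophoblast genes 1 passed, the X-linked homeobox gene Rhox5, which fell from 370 CPM to 6.53 and 3.51 CPM. None of these genes passed without haEpi1 or without haEpi5, and 11 and 9 mesenchymal genes passed without the female and the male wild-type EpiSC library.

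Epithelial genes, which pluripotent cells also use, gave 2 calls of 23 (median 0.67). Krt19 stood at 162 and 134 CPM against 4.97 CPM (4.89 ± 0.57, adjusted p = 0.0109), and Krt8 at 557 and 1111 CPM against 98.0 CPM (3.09 ± 0.56, adjusted p = 0.0363). Both are keratins of simple epithelia, and MEF held 5.10 and 12.3 CPM of them. Cdh1, E-cadherin, stood at 529 and 649 CPM against 621 CPM, and Epcam at 285 and 438 CPM against 289 CPM. Cdh2, N-cadherin, stood at 92.9 and 61.6 CPM against 8.75 CPM without passing (3.14 ± 1.23, adjusted p = 0.22). Neither keratin passed without haEpi1 or without haEpi5, and 6 and 5 epithelial genes passed without the female and the male wild-type EpiSC library.

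Heparan sulfate proteoglycans present growth factors such as FGF at the cell surface, and the series is concerned with the heparan sulfate enzyme gene Hs3st3b1. Hs3st3b1 was at 3.62 and 1.15 CPM in the EpiSC lines and 2.27 CPM in the EpiLC library. The EpiLC value lay between the lines (log2 0.08 ± 1.54, adjusted p = 0.99), and the sign turned to -0.97 without haEpi1 and to -0.004 and -0.10 with limma at pseudocounts of 1 and 0.1. Of 20 tested enzymes of heparan sulfate synthesis and editing 0 passed, with a median of 0.67 and 17 positive values. Ext1, a chain polymerase, came nearest, at 89.2 and 88.0 CPM against 35.6 CPM (1.32 ± 0.30, adjusted p = 0.0673). Hs3st3a1, the closest relative of Hs3st3b1, stood at 0.753 and 3.8 CPM in the EpiSC lines and had 0 counts in the EpiLC library (adjusted p = 0.176).

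Of 10 glypicans and syndecans, the core proteins that carry these chains, 5 rose in EpiSC, none fell and 9 had positive values, with a median of 2.15. Gpc1 stood at 172 and 148 CPM against 24.1 CPM (2.73 ± 0.36, adjusted p = 0.0153). Gpc4, which holds ESC ready to leave self-renewal, stood at 214 and 164 CPM against 31.0 CPM (2.61 ± 0.54, adjusted p = 0.0497). Gpc6 stood at 14.6 and 8.76 CPM against 0.629 CPM (4.20 ± 0.77, adjusted p = 0.0375). Among the transmembrane syndecans, Sdc2 stood at 58.9 and 65.3 CPM against 7.30 CPM (3.09 ± 0.45, adjusted p = 0.0196) and Sdc3 at 94.6 and 69.9 CPM against 11.1 CPM (2.89 ± 0.55, adjusted p = 0.0414). In these 5 genes both EpiSC lines were well above the EpiLC library and the lines lay within 2-fold of each other. Gpc4 did not pass with RLE or upper-quartile scaling or with MEF in the fit, nor Sdc3 with upper-quartile scaling, and Gpc1 was the 1 that passed with limma. Sdc4 (62.3 and 50.6 against 17.5 CPM, adjusted p = 0.0543) and Sdc1 (120 and 130 against 42.2 CPM, adjusted p = 0.13) were higher in both lines without passing. Gpc3 did not follow, with 141 and 34.5 CPM on either side of 62.1 CPM. MEF held 112 to 360 CPM of the 5 that rose, and the part of fibroblast RNA in their levels was not tested. No member passed without haEpi1 or without haEpi5, and 7 passed without the female or the male wild-type EpiSC library.

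**Figure D5:**
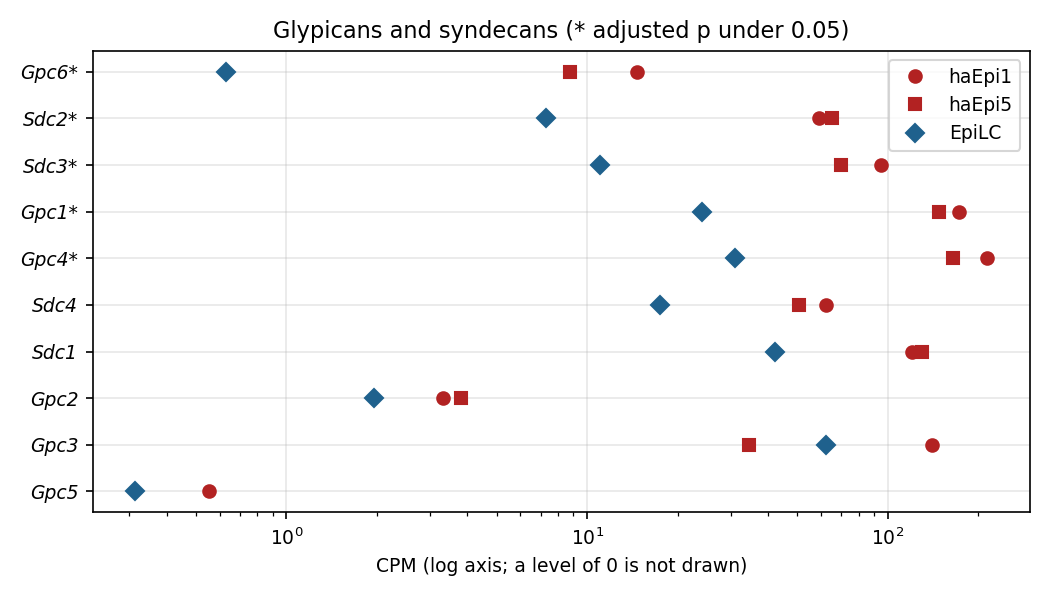
Levels of the 10 glypicans and syndecans (CPM, log axis) in haEpi1, haEpi5 and the EpiLC library, ordered by fold change, with genes past the adjusted p of 0.05 starred. The 5 starred genes have both EpiSC lines to the right of the EpiLC library, and Gpc3 has them on either side; Gpc5 in haEpi5, at 0, is not drawn.

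Targets of p53 could be compared between libraries that carry the same p53 label. Of 30 genes 2 rose, none fell and 23 values were positive (median 0.45). Cdkn1a, the cell cycle inhibitor p21, stood at 71.3 and 104 CPM against 12 CPM (2.86 ± 0.59, adjusted p = 0.0498). The diploid p53-KO EpiSC library held 4.34 CPM and the wild-type EpiLC library 116 CPM. Wild-type EpiSC held 70.8 CPM (female) and 162 CPM (male), so both haploid p53-KO lines lay within the wild-type EpiSC range. With RLE or upper-quartile scaling, or with MEF in the fit, Cdkn1a no longer passed. Plk2, a kinase of the damage response, stood at 136 and 134 CPM against 9.82 CPM (3.78 ± 0.58, adjusted p = 0.0239). Mdm2, the ubiquitin ligase of p53, stood at 146 and 184 CPM against 90.8 CPM, and Bax at 80.3 and 114 CPM against 82.3 CPM, and neither passed. Ccng1 (137 and 245 against 30.2 CPM, adjusted p = 0.141) and Phlda3 (28.8 and 48.3 against 3.52 CPM, adjusted p = 0.101) had large positive values without passing. MEF held 158 CPM of Cdkn1a and 128 CPM of Plk2. No target passed without haEpi1 or without haEpi5, and 9 and 8 passed without the female and the male wild-type EpiSC library.

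Among 17 G1 cyclins and inhibitors, Cdk6, the G1 kinase, rose beside Cdkn1a, from 30.4 CPM to 158 and 164 CPM (2.41 ± 0.36, adjusted p = 0.0212). None of 18 mitotic genes passed (median -0.47, 16 negative), for example Ccnb1 at 230 and 264 CPM against 465 CPM. Cdk6 did not pass without haEpi1 or without haEpi5, and 6 G1 genes passed without the female or the male wild-type EpiSC library.

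Of 22 paternally expressed imprinted genes tested 0 passed, while 6 passed, all higher, without the female or the male wild-type EpiSC library and 5 with DESeq2. Nnat, a neuronal proteolipid gene, came nearest at 92.8 and 337 CPM against 17.0 CPM (adjusted p = 0.0587). Among 19 maternally expressed genes, Slc22a3, an organic cation transporter, rose from 0.189 CPM to 8.84 and 14.1 CPM. Gnas, the stimulatory G protein locus, rose from 7.37 CPM to 86.8 and 39.9 CPM (3.11 ± 0.58, adjusted p = 0.0402). Cobl, an actin nucleator, fell from 48.9 CPM to 8.04 and 5.13 CPM (-2.89 ± 0.38, adjusted p = 0.0149). H19 differed between the lines, with 1012 CPM in haEpi1, 84.3 CPM in haEpi5 and 137 CPM in the EpiLC library. Gnas did not pass with upper-quartile scaling, and none of the imprinted genes passed without haEpi1 or without haEpi5.

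Glycolysis (21 genes), the respiratory chain (23), sterol synthesis (22) and the integrated stress response (14) had 0 calls, with medians of 0.48, -0.03, 0.22 and 0.59. Some of these genes separated the EpiSC lines instead: Slc2a1, a glucose transporter, was at 1440 and 424 CPM in the lines and 244 CPM in the EpiLC library. Of 19 interferon and MHC class I genes, Irf1, an interferon-response factor, fell from 123 CPM to 41.7 and 44.6 CPM (-1.51 ± 0.31, adjusted p = 0.0498). B2m, the MHC class I light chain, stood at 150 and 344 CPM against 46.3 CPM without passing (2.42 ± 0.56, adjusted p = 0.0693). Irf1 no longer passed with RLE or upper-quartile scaling, with MEF in the fit, or without either EpiSC line.

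Among the 12 protein-coding genes with the lowest fitted log2 fold changes, 10 had 0 counts in both EpiSC lines. For those 10 the fitted value, and so the ranking, depends on the prior count: their bounds run from -8.78 (Mael) to -6.03 (Pramel3), short of the measured -9.53 of Dnmt3l. Fkbp6, a co-chaperone of meiosis and the piRNA pathway, had 55.9 CPM in the EpiLC library, which makes its log2 fold change -8.43 or lower. Tex13b, a testis-expressed gene on the X chromosome, had 46.6 CPM (-8.17 or lower), and D1Pas1, a testis retrogene of the helicase Ddx3x, had 29.2 CPM (-7.49 or lower). Mael, Tex11, Rhox1, Magea4, Tuba3b, Naa11 and Pramel3 were the others at 0. Triml1 and Nlrp4f had 1 count over both lines against 66.4 and 64.3 CPM. Several of these (Tuba3b, Rhox1, Pramel3, Magea4 and D1Pas1) have close copies, so their counts are uncertain. The X chromosome carried 70 of the 400 genes that fell, or 8.33% of its 840 tested genes against 1.68% of 19689 autosomal genes. The X-linked and autosomal genes that fell had medians of 15.5 and 21.0 CPM in the EpiLC library. X-linked levels differed between the libraries as given above, and their part in this share was not tested.

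The genes with the highest fitted log2 fold changes included receptors and ligands that were near 0 in the EpiLC library. Calcr, the calcitonin receptor, stood at 74.4 and 86.4 CPM against 1.51 CPM (5.73 ± 0.53, adjusted p = 0.00459), and at 0.064 CPM in MEF. Klhl4, an X-linked kelch gene, stood at 88.8 and 54.6 CPM against 0.693 CPM (6.68 ± 0.84, adjusted p = 0.0132). Itgb8, an integrin that activates TGF-beta, stood at 10.7 and 29.0 CPM against 0.126 CPM. St8sia2, a polysialyltransferase, stood at 8.54 and 9.91 CPM against 0.189 CPM, and Rgs17, a regulator of G-protein signalling, at 8.89 and 11.2 CPM against 0.063 CPM. Areg, an EGF receptor ligand, stood at 13.0 and 5.42 CPM against 0.126 CPM, and Csf1r, the receptor of Csf1, at 7.28 and 4.26 CPM against 0.063 CPM. Gpr149, Klhl30, Fibin, Slc22a3 and Acta2 complete the 12 genes. Fibin had 0 counts in the EpiLC library and 131.8 CPM in MEF. Areg and Klhl30 no longer passed with RLE or upper-quartile scaling or with MEF in the fit, nor Csf1r with either scaling, Gpr149 and Slc22a3 with upper-quartile scaling or MEF, or Fibin with upper-quartile scaling. None of these 24 genes passed without haEpi1 or without haEpi5.

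The pattern extended beyond the 3 libraries. Of the 400 genes that fell, 399 (99.8%) were below the EpiLC library in all 3 other EpiSC libraries, against 34.6% of all genes tested. Both ESC libraries were above both haploid EpiSC lines for 382 (95.5%) of them and 29.1% of all genes tested, and the wild-type EpiLC library for 367 (91.8%) and 39.3%. Of the 289 genes that rose, 281 (97.2%) were above the EpiLC library in all 3 other EpiSC libraries, against 31.2% of all genes. The shares against the EpiLC library and those against the haploid EpiSC lines use the same libraries as the test that chose the genes. They describe the other libraries and are no independent test of the difference.

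Whether the EpiSC-EpiLC difference itself differed from that between the wild-type libraries was tested as an interaction. The wild-type pair was diploid EpiSC (n = 2) against the EpiLC library labelled haploid wild type (n = 1). Effects of p53 label, ploidy, line and culture therefore cannot be told apart. The p53-KO and wild-type EpiLC libraries also differed in Y-linked Ddx3y (0.630 and 46.1 CPM) and in naive Zfp42 (142 and 26.6 CPM). No gene of 20583 passed by edgeR (0%), with 1050 at an unadjusted p under 0.05, while DESeq2 called 125 genes and limma 160 and 311 at pseudocounts of 1 and 0.1. Without the female and the male wild-type EpiSC library edgeR called 146 and 94. The genes with the smallest p were Tinagl1, a matrix glycoprotein, Wfdc2, a secreted protease inhibitor-like protein, and Csf1, the macrophage growth factor. Tinagl1 stood at 108 and 82.2 CPM in the haploid p53-KO lines and 47.2 CPM in their EpiLC, and at 32.3 and 35.8 CPM in wild-type EpiSC against 0.323 CPM in wild-type EpiLC (interaction log2 -5.68, adjusted p = 0.287). Wfdc2 stood at 83.3 and 102 CPM against 98.3 CPM, and at 89.5 and 92.4 CPM against 5.16 CPM (interaction -4.22, adjusted p = 0.287). Csf1 stood at 301 and 228 CPM against 27.5 CPM, and at 136 and 124 CPM against 0.774 CPM (interaction -4.11, adjusted p = 0.437). In all 3 genes the EpiLC libraries lay further apart on the log2 scale than the EpiSC libraries did. For the naive list the median interaction was -2.53, with 16 of 22 values negative and 9 at an unadjusted p under 0.05, against a median of -0.10 over all genes.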

How the data were processed

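RNA was extracted with Trizol and poly-A selected libraries were made with a NEBNext Ultra kit, per the labels' protocols. The authors deposited whole-number counts per gene and FPKM, made with HISAT2 2.0.5 and featureCounts 1.5.0-p3 on mm10 per the submitters' processing notes. The sources used here give no strand setting, so reads of overlapping or antisense genes may be mixed. The deposited FPKM equal the counts divided by gene length and 1 constant per library (largest relative deviation 1.66e-08) and were used in alternatives only. The test used edgeR 4.0.16 (R 4.3.3) over 9 pluripotent libraries in 7 groups, with 1 mean each and 2 residual degrees of freedom (filterByExpr, TMM, quasi-likelihood F test, Benjamini-Hochberg at 0.05). SE is the absolute log2 fold change over the root of the F statistic. DESeq2 1.42.0 and limma 3.58.1 were alternatives. Counting intervals are exact conditional binomial at 95%. The procedure was run on simulated data in which every library had the same spread. Such data cannot test the assumption that the lone EpiLC library varies like the EpiSC libraries. The members and the 31 gene lists (580 entries, 566 tested, some genes in more than 1 list) were chosen with earlier results of these data known. Named genes were fixed markers, the 12 largest protein-coding changes per direction among those that passed with at least 5 CPM, up to 4 members that passed per list or else the 2 with the smallest p, and the 3 smallest interaction p; other members are named as examples chosen after their values were seen. Nothing says that libraries of a group came from separate animals. In the main analysis MEF were used for levels only, and they entered the fit in an alternative.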

Additional observations from a re-analysis of the deposited data

How the results depend on the processing

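Of 20583 genes 689 passed in the main analysis. The count was 2533 without the low-count filter, 1912 with DESeq2 (677 of the 689 among them), 2111 with the 3 libraries only, and 0 to 2536 with 1 EpiSC library left out, with 0 without either haploid line. It stayed within 1.5 times under RLE (627) and upper-quartile (517) scaling, with MEF (604) and with limma (917 and 705, of which 366 and 273 were among the 689). The same held over protein-coding genes with p-values adjusted anew (670), an alternative chosen after seeing the data. Leaving the genes highest in MEF out of the 689 calls, also chosen after seeing the data, kept 497. That count involved no new fit or adjustment and is no test of the calls. Higher and lower calls were 1263 and 1270 without the filter, 76 and 841 or 68 and 637 with limma, and 105 and 392 without genes highest in MEF. The interaction count of 0 became 271 without the filter, 125 with DESeq2, 160 and 311 with limma, and 0 to 146 with 1 library left out. The 1161 genes at least 4-fold away became 2548 at 2-fold, 577 at 8-fold and 1916 at a minimum of 1 CPM, and 1455 to 1566 with 1 EpiSC line alone. Hs3st3b1 (0.079) changed sign with limma (-0.004 and -0.104). With 1 library left out Hs3st3b1 ranged from -0.967 to 0.676, Fgf5 (0.179) from -0.479 to 0.632 and Wfdc2 (-0.083) from -0.235 to 0.059, each changing sign without haEpi1; the cause was not tested. Of the 101 named genes, 65 passed in the main fit, and 3 of the 101 changed sign without haEpi1 and 0 without haEpi5. Of those 65, 33 and 37 lost their call with limma at pseudocounts of 1 and 0.1, 17 under upper-quartile scaling, 9 with MEF and 6 under RLE. Leaving out an EpiSC line leaves 1 library against 1, with the spread taken from the wild-type pair. With 1 EpiLC library, differences between culture batches or preparations of EpiLC cannot be told apart from the state. No paired analysis was possible because the EpiLC side has 1 library and the replicate numbers only name libraries in accession order.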

Other observations

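Ribosomal RNA took 0.000962% of counts in haEpi1, 0.00128% in haEpi5 and 0.0455% in the haploid p53-KO EpiLC library, and mitochondrial genes 1.30%, 3.83% and 1.42%. Over 15 mitochondrial genes of at least 10 CPM the median log2 ratio to the EpiLC library was -0.25 in haEpi1 and 1.07 in haEpi5. The Y-linked helicase gene Ddx3y was at 8.49 and 5.01 CPM in haEpi1 and haEpi5 and at 0.630 CPM in the EpiLC library, against 94.2 CPM in the male wild-type EpiSC library, 5.75 CPM in the female one, 69.4 CPM in MEF, 46.1 CPM in the wild-type EpiLC library and 0 counts in diploid ESC.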
